A study of Mus musculus with 24 samples.

Results

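The promoters described here carried both the active mark H3K4me3 and the repressive mark H3K27me3 in XY and in XX gonadal progenitor cells at E10.5, and no longer carried both in Sertoli cells or in pregranulosa cells at E13.5. Members were chosen by the peak lists themselves, so their states at both stages are a description and not a test. A promoter was the window of 2 kb to each side of the annotated start (TSS) of a gene, and a mark was present where a region of its list overlapped that window by at least 1 bp. Of 34653 genes on chromosomes 1 to 19, 4971 were marked by both in both progenitor populations, which is called bivalent below. Of these, 588 (11.8%) met the rule and make up the set. For comparison, 22.3% of the 4971 were not bivalent in Sertoli cells and 16.6% were not bivalent in pregranulosa cells. The 588 windows fall into 495 separate loci once overlapping windows are joined, and 473 of them belong to protein-coding genes.

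ChIP-seq for both marks and for total H3, with 2 replicates each, was done on 4 cell populations sorted by fluorescence from embryonic mouse gonads on a mixed C57BL/6 and CD1 background. Progenitor cells came from XY and XX gonads carrying SF1-eGFP at E10.5, Sertoli cells from XY gonads carrying Sox9-CFP at E13.5, and pregranulosa cells (labelled granulosa cells) from XX gonads carrying TESM-CFP at E13.5. None of the groups carried a mutation under study, and the sorting rested on the expression of each reporter. Every sample held cells of pooled gonads with Drosophila carrier chromatin, and the 2 replicates of each mark and population were combined into 1 peak list, so no spread between replicates can be given and no test was run.

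H3K4me3 is laid down at active and poised promoters, and H3K27me3 is the silencing mark of Polycomb repressive complex 2. Promoters with both marks are common at developmental genes of undecided cells, and are known to keep one mark or the other as cells take a fate. In the gonad, the supporting cell precursor of either sex can become a Sertoli cell or a pregranulosa cell, and the factors that make the precursor itself are used in both.

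The sequence around the annotated start is shown for 8 members that stand for 3 of the outcomes. Wt1, Nr5a1, Gata4 and Zfpm2 kept H3K4me3 alone in both lineages, Col9a3 and Eln kept a different mark in each, and Uncx and Prdm8 kept H3K27me3 alone in both. Each run holds 250 bases before and 50 bases from the start, read 5′ to 3′ on the strand of the gene from mm9 (NCBIM37), and capitals mark CpG dinucleotides. Wt1 is at chr2:104966436-104966735 (+ strand). Nr5a1 is at chr2:38570013-38570312 (- strand). Gata4 is at chr14:63890480-63890779 (- strand). Zfpm2 is at chr15:40486338-40486637 (+ strand). Col9a3 is at chr2:180332245-180332544 (+ strand). Eln is at chr5:135223062-135223361 (- strand). Uncx is at chr5:140019198-140019497 (+ strand). Prdm8 is at chr5:98609638-98609937 (+ strand).
Wt1: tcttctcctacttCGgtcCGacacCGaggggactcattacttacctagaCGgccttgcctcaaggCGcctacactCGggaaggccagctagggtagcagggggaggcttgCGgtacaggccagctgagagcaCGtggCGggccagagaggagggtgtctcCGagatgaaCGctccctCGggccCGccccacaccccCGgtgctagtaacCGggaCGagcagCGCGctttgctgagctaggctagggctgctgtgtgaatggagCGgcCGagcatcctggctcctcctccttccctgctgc
Nr5a1: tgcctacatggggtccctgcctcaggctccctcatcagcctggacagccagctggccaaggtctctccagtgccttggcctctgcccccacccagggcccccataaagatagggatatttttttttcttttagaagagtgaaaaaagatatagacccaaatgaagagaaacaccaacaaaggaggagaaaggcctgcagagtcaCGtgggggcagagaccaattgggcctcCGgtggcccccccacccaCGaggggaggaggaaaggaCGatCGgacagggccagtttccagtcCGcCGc
Gata4: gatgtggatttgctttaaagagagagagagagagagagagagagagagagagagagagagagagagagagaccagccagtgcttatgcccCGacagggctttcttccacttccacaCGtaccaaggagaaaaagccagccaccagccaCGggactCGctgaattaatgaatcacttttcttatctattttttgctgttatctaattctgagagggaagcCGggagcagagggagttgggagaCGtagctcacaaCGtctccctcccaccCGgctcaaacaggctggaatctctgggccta
Zfpm2: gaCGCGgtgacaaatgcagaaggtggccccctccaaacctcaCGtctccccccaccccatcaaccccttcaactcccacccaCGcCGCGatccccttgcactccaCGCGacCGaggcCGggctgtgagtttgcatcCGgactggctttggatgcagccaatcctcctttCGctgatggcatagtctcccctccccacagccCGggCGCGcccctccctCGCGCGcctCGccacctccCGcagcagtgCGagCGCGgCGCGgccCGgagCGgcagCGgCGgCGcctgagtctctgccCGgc
Col9a3: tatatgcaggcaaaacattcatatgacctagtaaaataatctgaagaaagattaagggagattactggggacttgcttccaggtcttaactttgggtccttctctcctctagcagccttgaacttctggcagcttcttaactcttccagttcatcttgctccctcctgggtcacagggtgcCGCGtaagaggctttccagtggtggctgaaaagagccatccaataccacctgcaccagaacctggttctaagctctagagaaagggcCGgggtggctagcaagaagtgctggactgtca
Eln: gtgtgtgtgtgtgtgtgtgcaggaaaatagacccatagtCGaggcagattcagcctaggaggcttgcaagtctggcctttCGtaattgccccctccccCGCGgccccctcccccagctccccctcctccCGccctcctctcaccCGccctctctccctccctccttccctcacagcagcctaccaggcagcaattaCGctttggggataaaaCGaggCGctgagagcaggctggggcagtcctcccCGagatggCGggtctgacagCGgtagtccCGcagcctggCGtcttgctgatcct
Uncx: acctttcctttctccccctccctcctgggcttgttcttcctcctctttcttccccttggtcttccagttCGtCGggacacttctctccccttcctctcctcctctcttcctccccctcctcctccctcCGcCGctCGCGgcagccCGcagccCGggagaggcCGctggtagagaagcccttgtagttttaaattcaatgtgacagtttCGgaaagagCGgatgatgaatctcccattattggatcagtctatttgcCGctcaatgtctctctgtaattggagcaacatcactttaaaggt
Prdm8: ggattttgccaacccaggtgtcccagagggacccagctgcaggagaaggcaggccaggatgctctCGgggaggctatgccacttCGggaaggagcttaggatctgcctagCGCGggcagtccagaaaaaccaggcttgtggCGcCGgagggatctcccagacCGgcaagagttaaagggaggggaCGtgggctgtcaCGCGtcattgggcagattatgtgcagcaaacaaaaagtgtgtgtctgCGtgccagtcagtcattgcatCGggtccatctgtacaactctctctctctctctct

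The windows differed in CpG content even among the 4 gonadal factors. The run of Zfpm2 held 31 CpG dinucleotides and that of Wt1 held 20, while those of Gata4 and Nr5a1 held 8 and 7. Eln held 14, Uncx and Prdm8 held 12 each, and Col9a3 held 3.

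The lists differed in depth and in the genome they cover. Headers give from 6470151 tags (H3K27me3, XY progenitor) to 49254553 tags (H3K4me3, XX progenitor) for 6 lists, and the depth and calling settings of the pregranulosa lists are unknown. H3K27me3 regions covered 89.7 Mb of chromosomes 1 to 19 in XY progenitor cells, 82.2 Mb in XX progenitor cells, 156 Mb in Sertoli cells and 129.8 Mb in pregranulosa cells. By the rule, members lack at least 1 of the marks in each E13.5 population, and the part of list extent in these calls was not tested. Sertoli markers matched the label of the Sertoli cells, and pregranulosa markers matched theirs in part. All 7 Sertoli markers had H3K4me3 alone in Sertoli cells and both marks in pregranulosa cells, and all 6 pregranulosa markers had both marks in Sertoli cells, while 3 of the 6 had H3K4me3 alone in pregranulosa cells. Markers of other cell types were mixed. Ddx4 of germ cells, Pecam1 and Tek of endothelium and Ptprc of blood had neither mark in any of the 4 populations, Kdr, Tal1 and Insl3 were bivalent in all 4, and Dazl of germ cells and Star of steroidogenic cells had H3K4me3 alone in all 4. H3K4me3 was present, alone or with H3K27me3, at 1 to 4 of 5 germ cell markers, 2 to 4 of 5 steroidogenic markers, 1 or 2 of 4 endothelial markers and 1 or 2 of 3 blood markers in each population. The part of other cells in the results was not tested.

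The mark left was nearly always H3K4me3, and nearly always the same in both lineages. H3K4me3 alone was left in both Sertoli and pregranulosa cells at 543 of the 588 promoters (92.3%, exact 95% interval 89.9 to 94.4). H3K27me3 alone was left in both at 32 (5.44%, 3.75 to 7.60). That share was 8.33% with the widest 75% of regions and 3.40% where a mark counted as absent only with no region within 5 kb of the window. Over all 34653 windows, 11043 (31.9%) had H3K4me3 alone and 820 (2.37%) had H3K27me3 alone in both E13.5 populations. H3K4me3 was thus by far the commoner single mark over all windows too, and its lead is not particular to the members. Only 6 windows kept H3K4me3 in one lineage and H3K27me3 in the other, and 7 had neither mark in at least 1 lineage. The intervals cover counting error and no difference between replicates or in depth.

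**Figure D1:**
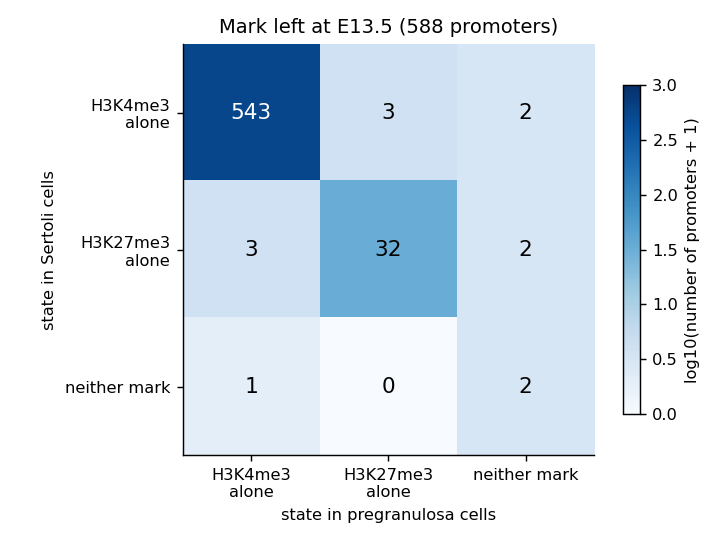
Number of promoters by the state in Sertoli cells (rows) and in pregranulosa cells (columns) among the 588 that were bivalent in both progenitor populations and in neither E13.5 population, with the colour on a log10 scale of the number plus 1. The count of 543 with H3K4me3 alone in both stands far above the 32 with H3K27me3 alone in both and the other 13.

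The opposite path was also counted. Of 10644 promoters with H3K4me3 alone in both progenitor populations, 264 (2.48%) were bivalent in both E13.5 populations. With the lists of each mark cut to equal length by region width, the number of members was 982, and with windows that overlap no other gene's window it was 378.

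Core factors of the early gonad were among the members. Of 18 such genes bivalent in both progenitor populations, 5 were members (27.8%, 9.69 to 53.5, an interval that holds the 11.8% of all progenitor-bivalent promoters), and all 5 kept H3K4me3 alone in both lineages. They are Wt1, which encodes a zinc finger factor needed for the gonad to form, Nr5a1, which encodes the nuclear receptor SF1, Gata4 and Gata6, which encode GATA factors, and Zfpm2, which encodes the GATA cofactor FOG2. Of the other 13, 10 stayed bivalent in all 4 populations, 1 was resolved in Sertoli cells only and 2, Emx2 and Lhx9, in pregranulosa cells only.

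Wt1 had its whole window under H3K4me3 in all 4 populations. H3K27me3 covered 3860 bases of it in XY progenitor cells, the whole window in XX progenitor cells and 0 bases in both E13.5 populations. The mark was thus complete or nearly so at E10.5 and gone from both lineages at E13.5. The nearest H3K27me3 region then lay 53783 bases from the TSS in Sertoli cells and 77033 bases in pregranulosa cells. The window overlaps that of AI314831, a lincRNA gene that starts close by on the other strand, which is also a member.

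Nr5a1, the gene whose reporter was used to sort the progenitor cells, had H3K4me3 over 2841, 3063, 2838 and 2869 bases in XY progenitor, XX progenitor, Sertoli and pregranulosa cells. H3K27me3 covered the whole window in both progenitor populations and none of it at E13.5. The H3K4me3 extent was thus alike in the 4 lists while the H3K27me3 extent went from whole to none. In the progenitors the H3K27me3 region was 21496 bases wide (XY) and 21706 bases wide (XX) and covered 85.7% and 86.4% of the gene.

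Gata4 had H3K4me3 over 2658, 3702, 2965 and 3292 bases in the same order, and H3K27me3 over the whole window at E10.5. Its H3K27me3 region was 48847 bases wide in XY and 73461 bases wide in XX progenitor cells, over 92.2% and 92.7% of the gene, and no H3K27me3 region lay within 20 kb of the TSS at E13.5. Gata6 had its whole window under H3K4me3 in all 4 populations and under H3K27me3 in both progenitor populations. Zfpm2 had H3K4me3 over 2937, 3964, 3853 and 3113 bases, with H3K27me3 over the whole window at E10.5. All 3 had 0 bases of H3K27me3 at E13.5, and the nearest region lay at least 147944 bases from the TSS. Each of the 5 genes was also a member under all 8 alternatives that changed the regions, the windows or the overlap.

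**Figure D2:**
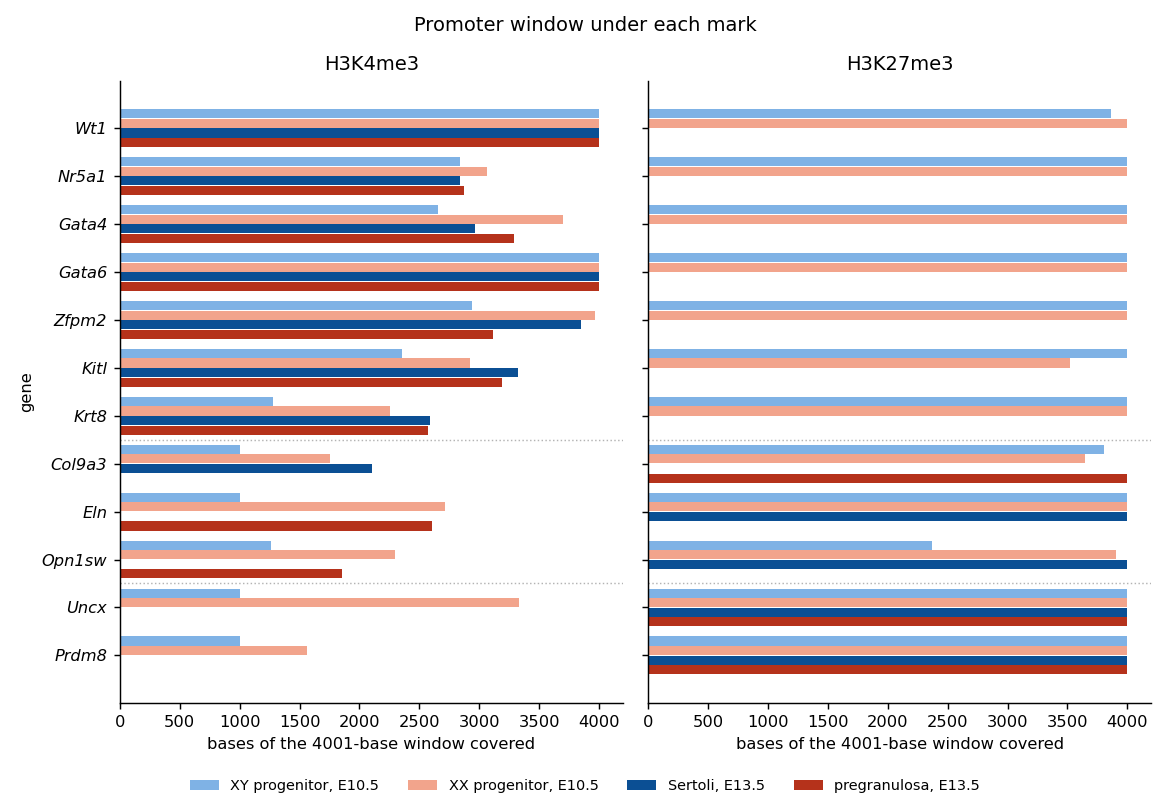
Bases of the promoter window of 2 kb to each side of the TSS covered by H3K4me3 (left) and H3K27me3 (right) in each of the 4 populations for 12 members, grouped by outcome (dotted lines); each bar is 1 pooled list and has no error. In the upper group H3K27me3 is present in the 2 progenitor populations and absent in both E13.5 populations while H3K4me3 stays.

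Among the members with no H3K27me3 within 20 kb of the TSS in both E13.5 populations, the 8 with the widest progenitor region lay at 5 loci. They are Gata4, E130114P18Rik and the neighbouring lincRNA gene Gm12676, Nr5a1 and the lincRNA 4933433P16Rik, which overlaps its start on the other strand, Gata6 and the lincRNA 1010001N08Rik at its start, and Rpp25, which encodes a subunit of RNase P. E130114P18Rik had H3K27me3 regions of 24240 bases (XY) and 25882 bases (XX), and Rpp25 had regions of 19627 and 15469 bases. Nr5a1 and Gata6 each share their region with the lincRNA gene at their start. No part of the progenitor region at any of the 8 members was covered at E13.5. The 588 members lay under 487 H3K27me3 regions of the XX progenitor list, 88 of which held more than 1 member. The region with most members, named after its values were seen, held the 5 histone genes Hist1h2ad, Hist1h2ae, Hist1h2bf, Hist1h2bg and Hist1h3d within 6329 bases.

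Of the secreted ligands, Kitl, the growth factor through which supporting cells sustain germ cells, had H3K4me3 over 2356, 2924, 3323 and 3192 bases in XY progenitor, XX progenitor, Sertoli and pregranulosa cells. Its H3K27me3 covered the whole window (XY) and 3521 bases (XX) at E10.5, and the nearest region at E13.5 was 286674 bases away in Sertoli and 286635 bases away in pregranulosa cells. The promoter thus had the same state and a like H3K4me3 extent in the 2 lineages. Wnt6, a Wnt ligand, had H3K4me3 over 2479 and 3949 bases in the progenitors and the whole window in both lineages, and lay in an H3K27me3 region of 54071 bases (XY) and 54021 bases (XX), of which 54.0% was still covered in Sertoli and 48.2% in pregranulosa cells. The Wnt6 window was thus clear within a region of which a part was still marked. Fgf18, Tgfb3, Gdf15, a distant Tgf-beta family ligand, and Gas6, the ligand of the TAM receptors, also kept H3K4me3 alone in both. Their H3K4me3 extent ranged from 1263 bases (Gas6, XY progenitor) to 3835 bases (Fgf18, Sertoli).

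Receptors and intracellular genes of the same pathways were also members. In the Wnt list, 5 of 56 progenitor-bivalent genes were members (8.93%, 2.96 to 19.6), near the 11.8% of all progenitor-bivalent promoters, against 37 that stayed bivalent in all 4 populations. Besides Wnt6 they are the receptor Fzd3, the Dkk receptor Kremen1, the Groucho corepressor Tle2 and the planar polarity effector Daam1, and all kept H3K4me3 alone in both. The Bmp, activin and Tgf-beta list had 3 of 37, with the type I activin receptor Acvr1b beside Tgfb3 and Gdf15. The receptor tyrosine kinase list had 3 of 55, all ligands. The Notch list had 1 of 20, the basic helix-loop-helix gene Hes6, and the Hedgehog and retinoic acid lists had 0 of 11 and 0 of 9. Zero of 11 allows a share of up to 28.5%, and 0 of 9 up to 33.6%.

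Developmental transcription factors had low shares of members, read against the 11.8% of all progenitor-bivalent promoters and without a test. Homeobox genes outside the Hox clusters gave 3 of 107 (2.80%, 0.582 to 7.98), and the list of other developmental transcription factors gave 6 of 127 (4.72%), 4 of which are the gonadal factors Gata4, Gata6, Nr5a1 and Zfpm2 already named. Other members of these lists are Zeb1, a homeobox and zinc finger factor, and Nfic, a nuclear factor I gene, with H3K4me3 alone in both lineages, and Uncx and Prdm8 with H3K27me3 alone in both. Neuronal and synaptic genes gave 1 of 84 (1.19%, 0.0301 to 6.46), Cntnap1, which encodes a protein of axon-glia junctions and kept H3K4me3 alone in both. Hox cluster genes gave 0 of 24, endothelial and blood markers 0 of 15, and Polycomb and Trithorax genes 0 of 8. These counts of 0 allow shares of up to 14.2%, 21.8% and 36.9%, so their intervals hold the 11.8%. In each of these lists most progenitor-bivalent genes stayed bivalent in all 4 populations, as 98 homeobox and 76 neuronal genes did.

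Epithelial and matrix genes had shares near that of all progenitor-bivalent promoters. Of 36 junction and polarity genes, 4 were members (11.1%, 3.11 to 26.1), all with H3K4me3 alone in both. They are Krt8, a keratin of simple epithelia, Marveld2, a protein of tricellular junctions, Cgn, a tight junction protein, and Pkp2, a desmosome protein. Krt8 had H3K4me3 over 1278, 2259, 2585 and 2570 bases in XY progenitor, XX progenitor, Sertoli and pregranulosa cells and H3K27me3 over the whole window at E10.5 alone. Of 48 matrix genes, 6 were members (12.5%, 4.73 to 25.2). The secreted glycoprotein Smoc1, the metalloproteinases Mmp11 and Mmp15 and the proteoglycan Sdc4 kept H3K4me3 alone in both, Ncan, a proteoglycan of nervous tissue, kept H3K27me3 alone in both, and Eln kept different marks.

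Genes for transporters and channels were also present. Solute carriers gave 17 members of 103 (16.5%, 9.92 to 25.1), 16 of them with H3K4me3 alone in both, among them Slc2a3, a glucose transporter, Slc11a2, an iron transporter, Slc1a6, a glutamate transporter, Slc30a4, a zinc transporter, Slc35a3, a nucleotide sugar transporter, and Slc37a2. Potassium channel genes gave 5 of 60 (8.33%, 2.76 to 18.4), and the intervals of both families hold the 11.8% of all progenitor-bivalent promoters. The channel members are Kcnd2, Kcnh2, Kcnn2 and Kcnt1 at H3K4me3 alone and Kcnj9 at H3K27me3 alone. The family of glutamate, GABA and glycine receptors, taken by gene symbol, gave 3 of 33. They are the receptor genes Gabra4 and Gabrb1, which lie next to each other, and Grina, which only its symbol places there. Further members of other lists, with H3K4me3 alone in both, are Btg2, an antiproliferative gene, Srd5a1, a steroid reductase, Dmc1, a meiotic recombinase, Sema6c, a semaphorin, Sox5 and Foxo6. Their H3K4me3 extents ranged from 1276 bases (Dmc1, XY progenitor) to 3987 bases (Sema6c, Sertoli), and none had an H3K27me3 base in the window at E13.5.

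Genes that the study lists as specific to Sertoli or to pregranulosa cells were members at about the same share. Of 306 Sertoli-specific genes bivalent in both progenitor populations, 67 were members (21.9%, 17.4 to 26.95), and of 261 pregranulosa-specific genes, 58 were members (22.2%, 17.3 to 27.8), against 11.8% of all progenitor-bivalent promoters. H3K4me3 alone in both was found at 65 of the 67 and at 57 of the 58. The rule and the 92.3% of all members with that state leave nothing to read from the 65 and the 57 about sex-specific genes. Both shares of members lay above the 11.8%, which their intervals do not hold, and the reason was not tested. Most of the listed genes were no members, with 121 of the 306 and 149 of the 261 bivalent in all 4 populations. Members among Sertoli-specific genes include Adamts16, a metalloproteinase, Adora1, an adenosine receptor, and Atp1b2, a sodium pump subunit. Members among pregranulosa-specific genes include Gata6, Kitl and Gas6, and also Ablim3, an actin-binding protein, and Bst2, an antiviral membrane protein. The members of these lists without H3K4me3 alone in both are Sema4a, with H3K27me3 alone in both, and Col9a3 among Sertoli-specific genes, and Opn1sw among pregranulosa-specific genes. Of the 8 alternatives on regions, windows or overlap, Sema4a was a member under 2, Col9a3 under 5 and Opn1sw under 7. By comparison, 115 of the 306 Sertoli-specific genes were resolved in Sertoli cells only and 3 in pregranulosa cells only, and of the 261 pregranulosa-specific genes 40 were resolved in pregranulosa cells only and 14 in Sertoli cells only.

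Col9a3, Eln and Opn1sw were the protein-coding genes that kept opposite marks. Col9a3, a chain of the cartilage collagen IX, had H3K4me3 over 1001, 1757, 2106 and 0 bases in XY progenitor, XX progenitor, Sertoli and pregranulosa cells and H3K27me3 over 3803 and 3644 bases in the progenitors, 0 bases in Sertoli cells and the whole window in pregranulosa cells. It was thus H3K4me3-marked in Sertoli cells and H3K27me3-marked in pregranulosa cells. Eln, which encodes elastin, had the opposite pattern, with H3K4me3 over 1001, 2713, 0 and 2605 bases and H3K27me3 over the whole window in all but pregranulosa cells, which had 0 bases. In Sertoli cells its H3K27me3 region was 21317 bases wide, against 7593 bases in XY progenitor cells. Opn1sw, the short-wave cone opsin, followed Eln, with H3K4me3 over 1261, 2300, 0 and 1858 bases and H3K27me3 over 2372 bases, 3903 bases, the whole window and 0 bases. The other windows of this kind are Mir196a-1, a microRNA gene of the Hoxb cluster annotated as 2 records with 1 start and H3K27me3 left in pregranulosa cells, and the pseudogene Rps2-ps10, with H3K27me3 left in Sertoli cells. With 1 list per mark and population, the difference between lineages was not tested.

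In 1 lineage or both, 7 windows had neither mark. Angpt4, an angiopoietin ligand, had H3K27me3 over the whole window in Sertoli cells and neither mark in pregranulosa cells. Gm5887 had H3K4me3 over 1001 bases in Sertoli cells and neither in pregranulosa cells, and Gm9851 had H3K4me3 over 1425 bases in pregranulosa cells and neither in Sertoli cells. The noncoding records AC124398.1, mmu-mir-2134-4, Gm13713 and 8430403D17Rik make up the rest.

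The 32 promoters left with H3K27me3 alone in both lineages had narrow H3K4me3 and wide H3K27me3 at E10.5. Of the 32, 5 were members under all 8 alternatives on regions, windows or overlap and 10 were lost in 4 or more of them. In XY progenitor cells the H3K4me3 region at the window had a median width of 1001 bases, the commonest width in the list, against 2253 bases at the 543 promoters left with H3K4me3 alone. In XX progenitor cells, whose list is deeper, the medians were 1524 and 3097 bases. The region was no wider than 1001 bases at 22 of the 32 in the XY list and at 6 in the XX list. Their H3K27me3 regions had a median width of 14793.5 bases (XY) and 16255.5 bases (XX), against 6266 and 6261 bases at the 543. At E13.5 a median of 100% of the progenitor H3K27me3 region was still covered in each lineage. An H3K4me3 region remained within 5 kb of the TSS in both E13.5 populations at 10 of the 32.

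Uncx, a homeobox gene of somites, kidney and nervous system, had H3K4me3 over 1001, 3336, 0 and 0 bases and H3K27me3 over the whole window in every population. Its H3K27me3 region was 50654 bases wide (XY progenitor), 51443 bases (XX progenitor), 141639 bases (Sertoli) and 105456 bases (pregranulosa), so it was wider at E13.5 in both lineages. Prdm8, a zinc finger gene of the nervous system, had H3K4me3 over 1001 and 1559 bases at E10.5 and none at E13.5, within H3K27me3 regions of 32895 to 35066 bases.

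The protein-coding genes of this outcome with most H3K4me3 at E10.5 were of mixed kind. They include Ptprn, a protein of secretory granules, Pyy, a gut peptide hormone, Accn1, an acid-sensing ion channel, Htr5a, a serotonin receptor, Pth1r, the parathyroid hormone receptor, Eya2, a transcriptional coactivator, and Kif12, a kinesin. Others are Defb25, a defensin, Alox12b, a lipoxygenase of skin, Cyp4x1, a cytochrome P450, Slc45a1, a sugar transporter, 4933428G20Rik and 1700017G19Rik. Outside Uncx and 4933428G20Rik, their H3K4me3 extent at E10.5 was between 1001 and 2124 bases in each progenitor list. H3K27me3 covered the whole window in all 4 populations at 12 of the 15 genes named here, Uncx and Prdm8 included.

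**Figure D3:**
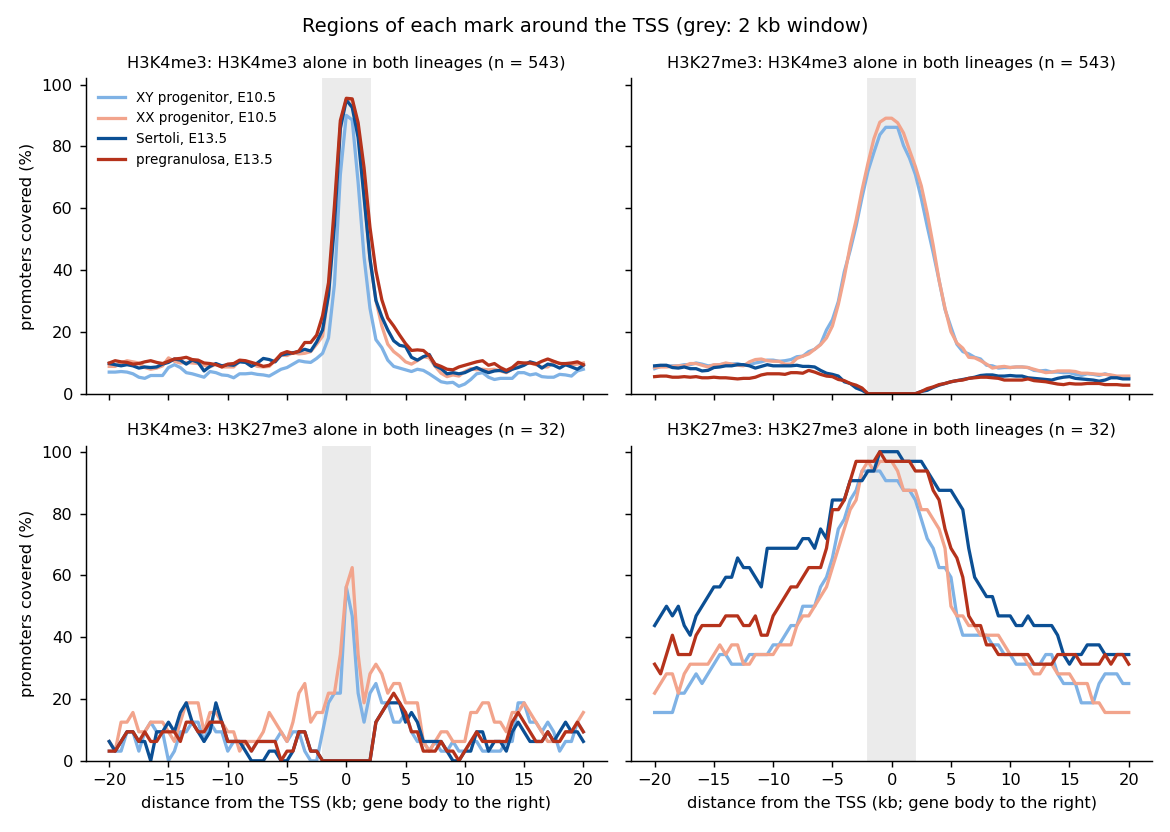
Share of promoters (y axis, %) covered by a region of H3K4me3 (left) or H3K27me3 (right) at each distance from the TSS (x axis, kb, step 500 bp, gene body to the right) in the 4 populations, for the 543 promoters left with H3K4me3 alone in both lineages (top) and the 32 left with H3K27me3 alone in both (bottom). At the TSS of the 543, H3K27me3 goes from 86.2% and 89.1% in the progenitors to 0 in both E13.5 populations, which the rule fixes. At 10 kb upstream it is 10.9% in XY progenitor and 9.02% in Sertoli cells.

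Around the window, H3K27me3 cover of the 543 promoters is given as a description, since listed regions at the members are at least 5 kb wide and the rule in part fixes the cover beside the window. At 5 kb downstream of the TSS it covered 21.5% of them in XY progenitor, 20.1% in XX progenitor, 3.87% in Sertoli and 3.87% in pregranulosa cells. At 10 kb downstream the shares were 8.47%, 8.47%, 5.89% and 4.42%. At 10 kb upstream it covered 10.9% in XY progenitor, 57 of 543 in XX progenitor, 9.02% in Sertoli and 6.45% in pregranulosa cells. The shares were thus lower at E13.5 at both distances, with a smaller difference between the stages at 10 kb than at 5 kb. The E13.5 lists also covered more of the genome. Of the 543, 474 (87.3%, 84.2 to 90.0) had no base of the progenitor H3K27me3 region covered in either lineage, and 388 (71.5%, 67.5 to 75.2) had no H3K27me3 base within 20 kb of the TSS in either. The nearest H3K27me3 region lay a median of 60945 bases from the TSS in Sertoli cells and 79344 bases in pregranulosa cells.

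H3K4me3 at the 543 covered more of the window at E13.5 in most cases, read against lists of unequal depth. It covered more bases in Sertoli than in XY progenitor cells at 79.7% (76.1 to 83.0), and more in pregranulosa than in XX progenitor cells at 56.5% (52.3 to 60.8). At the 3623 promoters bivalent in all 4 populations, the same lists gave 59.8% (58.2 to 61.4) and 31.1% (29.6 to 32.7). The median extents at the 543 were 2140, 2795, 2725 and 2947 bases in XY progenitor, XX progenitor, Sertoli and pregranulosa cells.

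The progenitor H3K27me3 regions of the members were narrower than those of promoters that stayed bivalent. Their median width was 6277.5 bases in XY and 6275 bases in XX progenitor cells, against 9891 and 10307 bases at the 3623. Promoters resolved in Sertoli cells only had medians of 7588.5 and 7868 bases, and those resolved in pregranulosa cells only 6332 and 7554.5 bases. The order was the same in both lists, with members lowest. A region no wider than 1 listed peak in both progenitor lists was found at 180 of 588 members (30.6%, 26.9 to 34.5) and at 174 of 3623 (4.80%, 4.13 to 5.55). At the other end, a region of 10 kb or more in both lists was found at 85 members (14.5%, 11.7 to 17.6) and at 45.2% (43.6 to 46.8) of the 3623. Promoters resolved in 1 lineage only lay between. The single-peak share was 20.2% for pregranulosa cells only and 12.3% for Sertoli cells only, and the share at 10 kb or more was 17.2% and 26.4%. The extent of a region moves with the strength of the signal that a list can call, and its part in the loss was not tested.

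**Figure D4:**
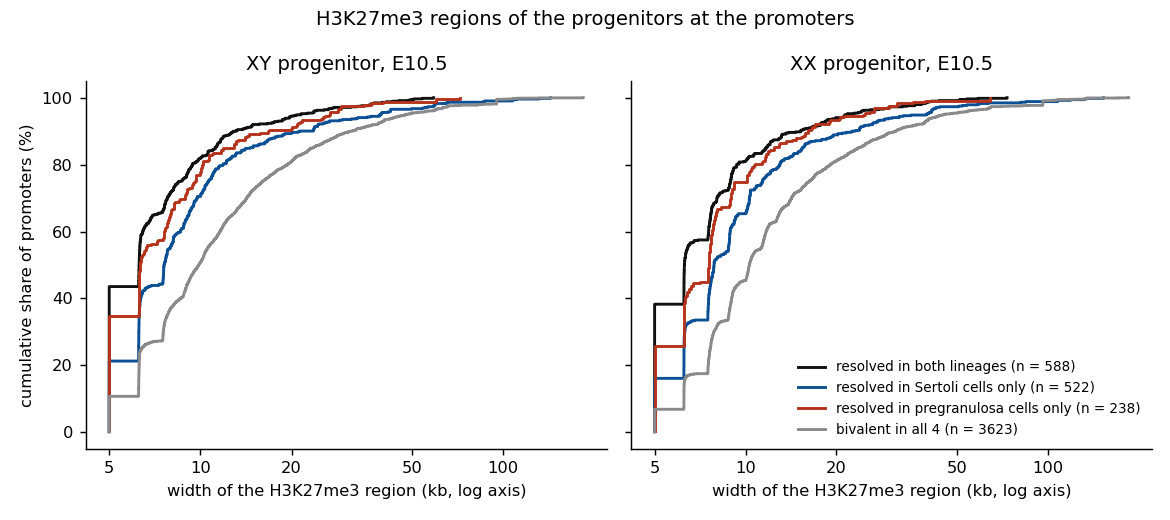
Cumulative share of promoters (y axis, %) by the width of the H3K27me3 region at the window (x axis, kb, log axis) in XY progenitor cells (left) and XX progenitor cells (right), for the 588 members, promoters resolved in 1 lineage only (522 and 238) and those bivalent in all 4 populations (3623). The curve of the members lies to the left, with medians of 6277.5 and 6275 bases.

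Members had a like share of protein-coding genes and less H3K27me3 cover than the promoters that stayed bivalent. Protein-coding genes made up 80.4% (77.0 to 83.6) of them and 82.7% (81.5 to 83.9) of the 3623. The TSS itself lay under H3K4me3 in both progenitor populations at 86.4% (83.4 to 89.1) of members and 86.5% (85.3 to 87.6) of the 3623, and under both marks in both at 73.5% (69.7 to 77.0) and 81.8% (80.5 to 83.1). It lay under H3K27me3 in both at 84.4% (81.2 to 87.2) and 94.6% (93.8 to 95.3). The whole window lay under H3K27me3 in both progenitor populations at 39.5% (35.5 to 43.5) of members and 74.6% (73.1 to 75.96) of the 3623. Promoters resolved in pregranulosa cells only were like the members, at 41.6% for the whole window, 84.5% for the TSS under H3K27me3 and 75.2% under both marks. Those resolved in Sertoli cells only lay between members and the 3623, at 58.8%, 92.3% and 75.9%. Noncoding members were 41 lincRNA, 34 processed transcript, 16 miRNA, 13 pseudogene, 7 snRNA and 4 snoRNA records. The share of progenitor-bivalent promoters that were members ranged from 7.59% on chromosome 8 to 18.2% on chromosome 18, with intervals of 4.87 to 11.2 and 12.2 to 25.7.

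CpG content separated the outcomes more than it separated members from other bivalent promoters. Within 500 bp of the TSS, CpG was at a median of 0.70 of the number expected from the C and G content at the 543 promoters left with H3K4me3 alone, 0.32 at the 32 left with H3K27me3 alone, 0.65 at the 3623 and 0.34 over all windows. CpG-rich windows, with a ratio of at least 0.6 and at least 50% G and C, made up 63.7% (59.5 to 67.8) of the 543 and 6.25% (0.766 to 20.8) of the 32, Uncx among them. They made up 59.1% (57.5 to 60.7) of the 3623 and 31.1% of all windows. Over all windows with H3K4me3 alone in both E13.5 populations the share was 67.9%, and over those with H3K27me3 alone in both it was 0.976%. The shares of the 2 outcomes thus lay close to those of all promoters in the same E13.5 state. Gata4 (0.17) and Nr5a1 (0.24) had ratios below the lower quartile of the 543, which was 0.55. Each ratio is for the 1 TSS used per gene, the upstream end of its annotated record, and for no other start.

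**Figure D5:**
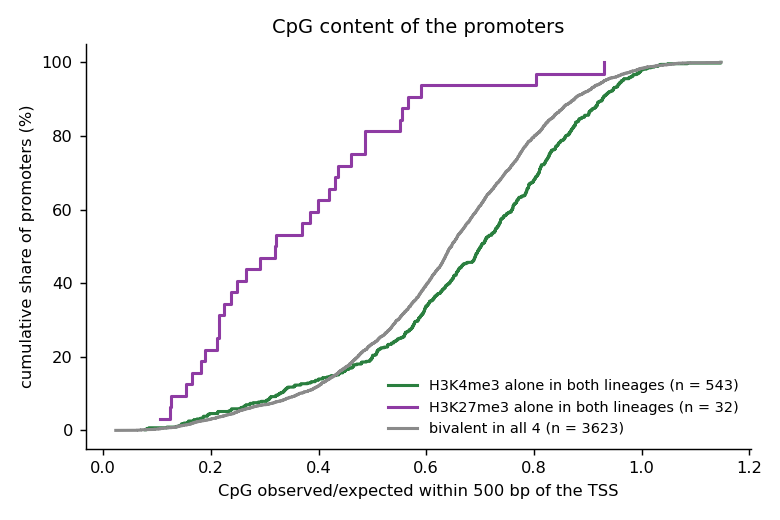
Cumulative share of promoters (y axis, %) by the ratio of observed to expected CpG within 500 bp of the TSS (x axis), for the promoters left with H3K4me3 alone in both lineages (543), those left with H3K27me3 alone in both (32) and those bivalent in all 4 populations (3623). The curve of the 32 lies to the left of the others, with a median of 0.32 against 0.70 and 0.65.

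Short motifs were searched on both strands of the 300 bases shown above, as exact letters. The GC box GGGCGGG was found at 47.4% of members and 22.6% of all windows, and at 50.1% of the 543 against 15.6% of the 32. It was at 44.6% of the 3623 that stayed bivalent. The E-box CACGTG was at 59 of 588 members against 6.28% of all windows, the NRF1 core GCATGCGC at 3.57% against 2.41%, and the E2F site TTTCGCGC at 0.680% (4 members) against 0.254%. These 4 motifs were thus more frequent by count in members than over all windows. The intervals of the NRF1 core (2.22 to 5.41) and of the E2F site (0.186 to 1.73) hold the shares of all windows. At the 3623 these 2 motifs were at 1.71% and 0.276%. The SF1 site CAAGGTCA was also higher by count, at 2.04% (12 members, 1.06 to 3.54) against 1.45%, and it was at 1.02% of the 3623. The cAMP response element TGACGTCA was at 10 of 588 members against 1.64%, and the CCAAT box at 34.7% against 38.0%. The GATA site AGATAA was at 8.33% against 12.5%, the SOX site AACAAT at 5.27% against 12.5% and the TATA box with the letters TATAAA at 8.67% against 15.8%. Of the 3623, 8.14% held the E-box, 6.07% the GATA site, 5.77% the SOX site and 8.14% the TATA box, so these shares of members lay nearer to those of other bivalent promoters than to those of all windows. The core CTTTGAT of the TCF/LEF site was at 2.89% against 3.98%, and the longer site CTTTGATC, which contains it, at 0.850% against 0.958%. Among the runs shown, Wt1 held a GC box and an E-box, Nr5a1 a CCAAT box and an E-box, Gata4 a GATA site and Eln a GC box, while Zfpm2, Col9a3, Uncx and Prdm8 held a CCAAT box only. A match is a string of letters and not a bound site.

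The rule has sharp edges, and some members lay close to them. The least covered mark at E10.5 covered under 100 bases at 12 of 588 members and under 1000 bases at 66. Just inside were Gm10177 with 10 bases and Kcnj9 with 13 bases of H3K4me3 in XY progenitor cells, and just outside were Gm10814 and Ddit4l, whose nearest H3K4me3 region lay 10 and 18 bases from the window. At E13.5 a region of a mark counted as absent lay within 1000 bases of the window at 40 members and within 5000 bases at 121. The nearest were 4930526A20Rik, 6 bases from H3K27me3 in Sertoli cells, and Rpl28, 13 bases from H3K27me3 in pregranulosa cells. Krt19 and Fosl2 stayed out by 19 bases of H3K4me3 and 27 bases of H3K27me3 in pregranulosa cells.

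Of the 28 genes named in the study, 21 were bivalent in both progenitor populations and 2, Wt1 and Gata4, were members. Of the other 19, 10 were bivalent in all 4 populations, 4 were resolved in Sertoli cells only and 5 in pregranulosa cells only.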

How the data were processed

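Peak lists of H3K4me3 and H3K27me3 from 4 sorted populations were used as deposited, 1 list per mark and population, in mm9. The authors trimmed and aligned reads and called peaks with HOMER, and the submitters' processing notes also name Trim Galore, Bowtie and SAMtools, with versions not given in the sources used here. Per the file headers of 6 lists, a peak had to pass 4-fold over input and 4-fold over its surroundings at a Poisson threshold of 0.0001. The calls in these headers were made on combined replicates, while the study's methods describe peak calling for each replicate. The pregranulosa lists carry no settings and no overlapping peaks, so whether they were called alike is unknown. The deposited lists give start and end positions and a score column that the authors left at 1 fixed value, so no height was available. Total H3 was not used here, apart from the H3 ChIP that the study's methods name as input.

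Overlapping peaks of a list were joined, and a window of 2 kb to each side of 1 TSS per gene (GENCODE for mm9, chromosomes 1 to 19) was scored as marked at an overlap of at least 1 bp. Tag totals were from 6470151 to 49254553 in 6 lists and unknown in the pregranulosa lists. Shares carry exact (Clopper-Pearson) 95% intervals, which cover counting error only. With 1 pooled list per population, no test was run. The scoring was tested on simulated regions with known overlaps. Python 3.11.15, NumPy 2.4.6 and SciPy 1.17.1 were used, and sequences were read from NCBIM37.

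The members and the gene lists were chosen with earlier results of these data known. Apart from an item not reported here, genes named are the members of the listed pathways and families (up to 6 of the longer lists, by H3K27me3 bases at E10.5), the 8 with the widest cleared H3K27me3 region, all with unlike states in the lineages, the 15 coding genes with H3K27me3 alone in both and most H3K4me3 at E10.5, and those at the edges of the rule. Genes named beside them for a list or for a check were chosen after their values were seen. The 2 sex-specific lists are from the study's supplement and rest on earlier expression data. Alternatives varied the overlap, window, regions and TSS.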

Additional observations from a re-analysis of the deposited data

Results flagged for a closer look

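Windows at 5 loci kept H3K27me3 in one lineage and H3K4me3 in the other. They are given as the percent of the window under H3K27me3 in pregranulosa minus that in Sertoli cells, and the differences were not tested, since each value comes from 1 pooled list. Col9a3 differed by 100 points and Mir196a-1 by 100 points, with the mark in pregranulosa cells. Eln differed by -100 points, Opn1sw by -100 points and Rps2-ps10 by -33.3 points, with the mark in Sertoli cells. Of the 10 alternatives run, Eln and Opn1sw were members under 9, Col9a3 and Mir196a-1 under 7 and Rps2-ps10 under 5.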

How the results depend on the processing

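No paired analysis was possible because each list pools both replicates, and leaving out a replicate was not possible for the same reason. The number of members (588) was 982 with the lists of each mark cut to equal length and 378 with windows that overlap no other gene's window, and between 468 and 602 under the other 8 alternatives. Of the 982, 571 were also members as reported. The share of progenitor-bivalent promoters that were members (11.8%) was 20.2% with lists of equal length and 9.47% where a mark counted as absent at E13.5 only with no region within 5 kb of the window. The share of members with H3K4me3 alone in both lineages (92.3%) was 89.3% with the widest 75% of regions and 95.3% with the 5 kb rule. The share with H3K27me3 alone in both (5.44%) was 8.33% and 3.40% under the same 2 settings. With the widest 75% of regions there were 468 members, 271 of them shared with the 588. The cause of these shifts was not tested, apart from the smaller number of windows where windows were left out. Under all 8 alternatives on regions, windows or overlap, 169 of 588 (28.7%) were members, with 161 of the 543 and 5 of the 32. Unlike depth of the lists limits each statement that a mark is absent.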
